A study of Mus musculus with 20 samples.

Results

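The miR-99/100 and miR-125 families were followed in small RNA libraries of the mouse ventral hippocampus. Their members were chosen by name, as every row of the deposited miRNA table whose stem is miR-99a, miR-99b, miR-100, miR-125a or miR-125b, whatever the arm. This gave 7 of 281 miRNAs, namely miR-99b-5p (mmu-mir-99b-5p), miR-125a-5p (mmu-mir-125a-5p), miR-99a-5p, miR-100-5p, miR-125b-5p, miR-99a-3p and miR-125b-2-3p. Other arms of these hairpins were not analysed here. Cannabidiol (CBD), a plant cannabinoid that is not intoxicating, was given to 10 mice and vehicle to 10 mice. CBD was dosed at 200 mg/kg/day. Both groups had 2 intraperitoneal injections a day for 5 days, so the injections themselves were common to all 20 animals. All mice were naïve, wildtype males of the C57BL/6JOlaHsd strain, and the right ventral hippocampus was taken, with no age in the labels. The comparison asks how CBD changes miRNA levels without a disease model. Each library also carries a run number from 1 to 4 in a deposited technical table, and neither labels nor headers say what a run is. Runs 1 to 4 held 3, 3, 2 and 2 CBD libraries and 2, 3, 2 and 3 vehicle libraries.

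A mature miRNA guides the silencing machinery to messenger RNAs that pair with its seed, the short stretch near its 5′ end. The miR-99/100 family consists of relatives of the ancient miR-10 family and is known for repressing Mtor, the growth kinase. The miR-125 family consists of the vertebrate relatives of worm lin-4. It is known for repressing Lin28, the let-7 inhibitor, during neural differentiation, and in mouse neurons miR-125a and miR-125b are known to act on the synaptic messenger RNAs Dlg4 and Grin2a. The families lie side by side in the genome, each cluster pairing a miR-99/100 gene, a let-7 gene and a miR-125 gene.

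The mature sequences are shown because the 5p members fall into 2 seed groups that cut across the clusters, and because close sequence decides how far reads can be assigned to a member. All 7 members matched RefSeq on GRCm38.p6, and capitals mark the seed, bases 2 to 8 from the 5′ end.
miR-99b-5p: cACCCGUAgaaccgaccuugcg
miR-99a-5p: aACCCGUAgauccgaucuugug
miR-100-5p: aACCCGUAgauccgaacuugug
miR-125a-5p: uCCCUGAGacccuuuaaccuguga
miR-125b-5p: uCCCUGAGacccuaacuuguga
miR-99a-3p: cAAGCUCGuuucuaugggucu
miR-125b-2-3p: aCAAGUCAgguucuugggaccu
The 3 miR-99/100 5p members share the seed ACCCGUA, and the 2 miR-125 5p members share CCCUGAG, while each 3p member has a seed of its own. Counted from 1 at the 5′ end and with the base of miR-99a-5p given first, miR-100-5p differs from miR-99a-5p by the single substitution U16A. Reads with an error at this base, or cut short before it, can therefore be placed on the wrong one of this pair. How the authors' counting treated them is not stated. From miR-99a-5p to miR-99b-5p there are 4 substitutions, A1C, U11A, U16C and U21C. The 2 miR-125 5p members are identical over 13 bases from the 5′ end and differ in length, with 24 nt for miR-125a-5p and 22 nt for miR-125b-5p. GC content was 50% in 5 members, 63.6% in miR-99b-5p and 47.6% in miR-99a-3p.

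The members come from 3 clusters, all on the plus strand of GRCm38. The cluster on chromosome 17 holds miR-99b-5p (chr17:17830194-17830215) and miR-125a-5p (chr17:17830817-17830840). Their hairpins start 624 bases apart with let-7e between them, in an intron of the protein-coding gene Spaca6 for Mir99b and over an annotated Spaca6 exon for Mir125a. The cluster on chromosome 16 holds miR-99a-5p (chr16:77598940-77598961), miR-99a-3p (chr16:77598977-77598997) and miR-125b-2-3p (chr16:77646318-77646339) within introns of the noncoding gene Mir99ahg. There the hairpins Mir99a and Mir125b-2 start 47337 bases apart, and Mir125b-2 also overlaps an exon of C130023A14Rik. The cluster on chromosome 9 holds miR-100-5p (chr9:41531437-41531458) within introns of the noncoding genes 3110039I08Rik and Gm49317, and its hairpins Mir100 and Mir125b-1 start 50501 bases apart. The mature miR-125b-5p is encoded identically on chromosome 9 (chr9:41581940-41581961) and chromosome 16 (chr16:77646279-77646300). Its reads cannot be split between these clusters, whereas miR-125b-2-3p is listed for the chromosome 16 hairpin alone.

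Libraries held 326559 to 1245429 reads with CBD and 242178 to 1169139 with vehicle. Values are log2 reads per 1000000 (CPM) of a library scaled by the authors, with a scaling factor of 0.693 to 1.17 times the total. Sums of marker miRNAs, here and by run, are instead CPM of the unscaled total reads. The 5 neuronal marker miRNAs summed to 153935 to 282523 CPM with CBD and 154808 to 276571 with vehicle, while 0 of the 3 listed red blood cell miRNAs were analysed here. That list names miR-486a-5p, whereas miR-486b-5p, not listed, had a row and differed between runs (limma adjusted p = 0.00598). For choroid plexus and ependyma 3 of 5 listed miRNAs had a row and summed to 3972 to 23526 CPM with CBD and 4010 to 33025 with vehicle. For immune cells 2 of 5 had a row, with 2176 to 14163 and 2655 to 24556 in CBD and vehicle libraries. All 4 blood vessel miRNAs had a row and summed to 2238 to 5120 CPM with CBD and 2634 to 9221 with vehicle, and all 3 oligodendrocyte miRNAs to 291 to 833 CPM with CBD and 471 to 1986 with vehicle. The medians with CBD and vehicle were 208374 and 210330 CPM for neurons and 17317 and 7702 for choroid plexus and ependyma. They were 6054 and 7194 for immune cells, 3859 and 5119 for blood vessels, and 462 and 709 for oligodendrocytes. These sums were not tested between the groups. In bulk tissue fewer cells of a type and less RNA per cell cannot be told apart. Nothing in the labels says more of each sample than that it is 1 mouse, and runs followed blocks of mouse numbers.

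The members differed widely in level. The most abundant was miR-125a-5p, at ranks 4 to 13 among the 281 miRNAs analysed. It had 1.28% to 3.85% of the total reads with CBD and 1.74% to 4.97% with vehicle. The miR-125b-5p level came next, with 0.358% to 1.67% of the reads with CBD and 0.490% to 2.01% with vehicle. Members are 21 to 24 nt long and 1 read spans a whole miRNA, so levels were compared with no length correction. Each sequence is ligated and amplified with its own efficiency, so a gap between members is a gap in reads. The log2 level of miR-125a-5p was above that of miR-125b-5p in 19 of 20 libraries, miR-125b-5p above its own 3p arm in 20, miR-125b-2-3p above miR-99a-5p in 20, and miR-99a-5p above miR-99b-5p in 19. The last neighbours in the order did not differ beyond their spread. The log2 level of miR-99b-5p was above that of miR-99a-3p in 9 of 20 libraries, and that of miR-99a-3p above miR-100-5p in 14 of 20. Some paralogues with the same seed were thus far apart in reads. The miR-99a-5p level was above miR-99b-5p by 1.37 ± 0.71 on the log2 scale, and miR-125a-5p above miR-125b-5p by 1.47 ± 0.69 (SD, n = 20). Others were not, as miR-99b-5p was above miR-100-5p by 0.42 ± 0.81, and in 13 of 20 libraries.

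CBD and vehicle mice did not differ in any member after adjustment. Between the groups, 5 of the 7 members had a lower mean with CBD, the 4 largest gaps being those of miR-99b-5p, miR-100-5p, miR-125b-5p and miR-99a-5p, but each gap was smaller than the spread between mice. In the limma fit across all miRNAs 0 of 7 members had an adjusted p under 0.05 (0% of the 281), and 0 of 7 had an unadjusted p under 0.05, against 22 of 281 (7.83%). The share of members lower with CBD, 5 of 7, stood beside 61.6% of all 281 miRNAs. It was 4 of 7 with each library centred on its median miRNA, since miR-125a-5p then stood at 0.06. The median difference was -0.15 over the members and -0.08 over all miRNAs. The median of all miRNAs moved to 0.0034 with that centring and to -0.15 with scaling to total reads.

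Of the miR-99/100 5p members, miR-99b-5p and miR-100-5p spread widely in vehicle mice, with SDs of 0.46 and 0.31 with CBD and 1.13 and 1.01 with vehicle. With CBD, miR-99b-5p had a lowest, median and highest log2 level of 6.55, 7.09 and 8.01, against 5.89, 7.32 and 9.19 with vehicle, so that all 10 CBD libraries lay within the vehicle range. The difference was -0.29 (SE 0.36, 95% interval -1.03 to 0.45, limma adjusted p = 0.865), and the vehicle mean was above 8 of the 10 CBD libraries. The vehicle mice with the highest levels were replicates 1 and 2, at 9.19 and 9.15, both of run 1. For miR-100-5p the lowest, median and highest levels were 6.23, 6.75 and 7.31 with CBD, against 5.30, 6.82 and 8.39 with vehicle. All 10 CBD libraries again lay inside the vehicle range, and vehicle replicates 1 and 2 were again on top, at 8.39 and 8.33, while the lowest level, of vehicle replicate 5, rested on 7 reads. The difference of miR-100-5p was -0.28 (SE 0.32, 95% interval -0.93 to 0.37, limma adjusted p = 0.847). The miR-99a-5p level was among the steadiest, with an SD of 0.31 over 20 libraries against a median SD of 0.56 over all miRNAs. It had 8.17, 8.64 and 8.90 with CBD, against 8.28, 8.67 and 9.49 with vehicle, a difference of -0.15 (SE 0.17, 95% interval -0.50 to 0.21, limma adjusted p = 0.847).

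The miR-125 members were as close between the groups. With CBD the lowest, median and highest log2 levels of miR-125a-5p were 13.70, 14.55 and 15.40, against 14.02, 14.51 and 15.83 with vehicle, and 9 of 10 CBD libraries lay inside the vehicle range. The difference was -0.02 (SE 0.25, 95% interval -0.53 to 0.49, limma adjusted p = 0.973). For miR-125b-5p the levels were 12.29, 13.06 and 13.80 with CBD, against 12.30, 13.21 and 14.38 with vehicle, a difference of -0.26 (SE 0.26, 95% interval -0.79 to 0.27, limma adjusted p = 0.817). The groups overlapped here too, with 9 of 10 CBD libraries inside the vehicle range, and the vehicle mean was above 8 of them. The 3p arms, which are usually the discarded strand of a hairpin, had means slightly higher with CBD. In miR-125b-2-3p the levels were 9.46, 9.86 and 10.43 with CBD, against 9.36, 9.78 and 10.30 with vehicle, and in miR-99a-3p they were 5.71, 7.42 and 7.85 with CBD, against 6.29, 6.96 and 7.98 with vehicle. Their differences were 0.08 (SE 0.17) and 0.14 (SE 0.28), with limma adjusted p of 0.932 and 0.915.

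**Figure D1:**
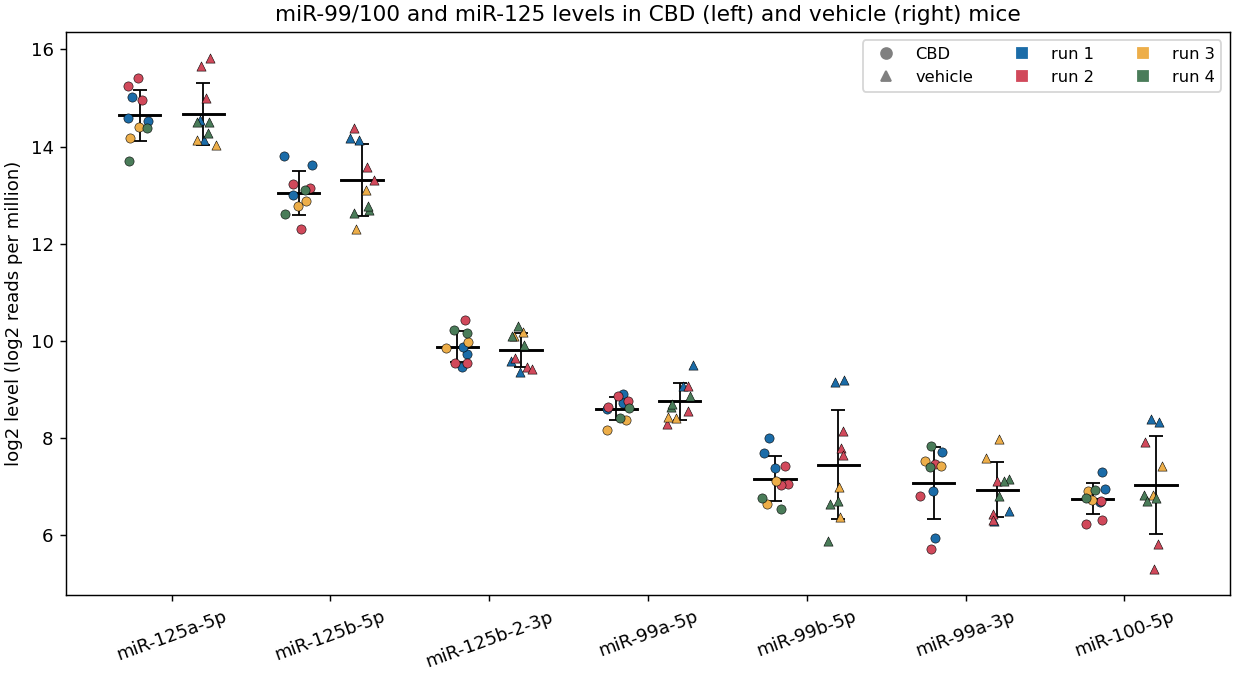
The log2 level (log2 CPM, vertical axis) of each of the 7 miRNAs is plotted for each library, with CBD mice left (circles) and vehicle mice right (triangles), coloured by run, and with bars for the mean and SD (n = 10 each). The groups overlap in every member. The vehicle levels of miR-99b-5p and miR-100-5p reach from vehicle replicates 1 and 2 of run 1 at the top down to vehicle replicate 10 for miR-99b-5p and vehicle replicate 5 for miR-100-5p.

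The sign of the CBD difference was not the same in every run for any of the 7 members. For miR-99b-5p the CBD minus vehicle log2 difference was -1.48, -0.70, 0.20 and 0.24 in runs 1 to 4. In run 1 its log2 levels were 7.69, 8.01 and 7.38 with CBD, against 9.19 and 9.15 with vehicle, and in run 2 they were 7.42, 7.05 and 7.03 with CBD, against 7.79, 8.15 and 7.66 with vehicle. The groups did not overlap within either of these runs, which also held for 39.1% of the 281 miRNAs in run 1 and 7.83% in run 2. In run 3 they did overlap, at 6.65 and 7.12 with CBD, against 6.99 and 6.38 with vehicle, and in run 4 as well, at 6.55 and 6.77 with CBD, against 6.65, 6.71 and 5.89 with vehicle. The treatment by run term of miR-99b-5p had an unadjusted p of 0.00566 in limma and an adjusted p of 0.398, and 0 of the 7 members and 0% of all miRNAs passed that test, with 14 of 281 at an unadjusted p under 0.05 and a lowest adjusted p of 0.235. With run as a further term the CBD difference of miR-99b-5p was -0.48 (SE 0.22, 95% interval -0.92 to -0.03, limma p = 0.0388, adjusted p = 0.306), the only member with an unadjusted p under 0.05, against 42 of 281 miRNAs (14.9%). With weights per library in place of the run term it turned to 0.24, and without run 1 or run 2 it was not called either.

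Apart from miR-99b-5p, the largest differences within runs were those of miR-100-5p in run 1 and miR-125b-5p in runs 1 and 2. In runs 3 and 4 the differences of miR-99a-3p and miR-125a-5p were larger in size than those of miR-99b-5p. For miR-100-5p the CBD minus vehicle differences were -1.38, 0.07, -0.30 and 0.08 in runs 1 to 4, and in run 1 its levels were 6.95, 7.31 and 6.69 with CBD, against 8.39 and 8.33 with vehicle, with no overlap. The miR-125b-5p differences were -0.68, -0.86, 0.12 and 0.16, and with the run term its difference was -0.37 (SE 0.19, limma p = 0.0706, adjusted p = 0.363). In run 1 the levels of miR-125b-5p were 13.80, 13.62 and 13.004 with CBD, against 14.14 and 14.18 with vehicle, and in run 2 they were 13.23, 13.15 and 12.29 with CBD, against 13.58, 13.32 and 14.38 with vehicle. The groups did not overlap within either run. For miR-99a-5p the differences were -0.54, 0.12, -0.15 and -0.22, and for miR-125a-5p 0.37, -0.29, 0.21 and -0.39. In all, the groups did not overlap for 4, 2, 4 and 2 of the 7 members in runs 1 to 4, beside 39.1%, 7.83%, 21.4% and 39.9% of all 281 miRNAs. Besides the cases above, these were miR-99a-5p in runs 1, 3 and 4, miR-99a-3p in runs 3 and 4, and miR-125a-5p and miR-125b-2-3p in run 3. The 3p arms had 0.22, 0.33, -0.23 and 0.09 for miR-125b-2-3p and 0.46, 0.04, -0.30 and 0.59 for miR-99a-3p. The authors' deposited table gives a log2 fold change of -0.47 for miR-99b-5p and -0.36 for miR-125b-5p, with adjusted p of 0.232 and 0.259, and those of the other members in that table had adjusted p between 0.324 and 0.915.

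**Figure D2:**
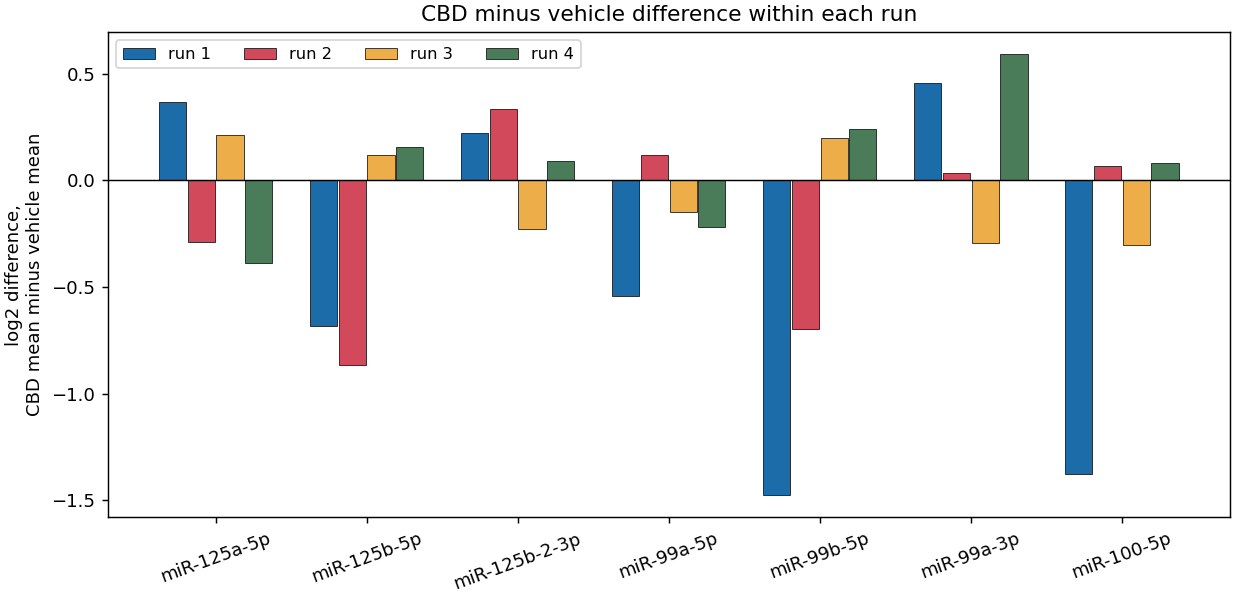
The bars give the CBD mean minus the vehicle mean (log2, vertical axis) of each miRNA within each of the 4 runs, without error bars since a run holds 2 or 3 libraries of a group. The bars of miR-99b-5p reach -1.48 and -0.70 in runs 1 and 2 and 0.20 and 0.24 in runs 3 and 4.

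Between runs 4 of the members differed, and not in the same way. The level of miR-99b-5p was highest in run 1 and lower in each later run, while miR-125a-5p, encoded next to it on chromosome 17, was highest in run 2 and near its lowest in runs 3 and 4. With run tested beside treatment in limma, 4 of 7 members passed an adjusted p under 0.05, as did 135 of all 281 (48.0%), so the share of members, 57.1%, was near that of all miRNAs. The range of the run means had a median of 0.99 over the members and 0.87 over all miRNAs. These 4 members were miR-99b-5p, miR-125a-5p, miR-125b-5p and miR-99a-3p.

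In miR-99b-5p the mean log2 levels were 8.28, 7.52, 6.79 and 6.51 in runs 1 to 4 (limma adjusted p = 0.00106). These means spanned 1.77, more than in 95.7% of the miRNAs. The call held in each of the 20 fits that left out 1 library, at limma adjusted p of 0.000504 to 0.00542. Vehicle replicates 1 and 2 were left out singly and never together, so whether the call rests on both was not tested. Only 1 library of the later runs, CBD replicate 8 at 7.12, lay above the lowest library of run 2 at 7.03.

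For miR-125a-5p the means were 14.56, 15.35, 14.18 and 14.28 in runs 1 to 4 (limma adjusted p = 0.00139), and the call again held in 20 of 20 fits. In run 2 its log2 levels were 14.96, 15.25 and 15.40 with CBD, against 15.67, 14.99 and 15.83 with vehicle. Except for CBD replicate 2 of run 1, at 15.02, every library of the other runs was below all 6 of run 2. The 4 highest libraries, CBD replicates 5 and 6 and vehicle replicates 3 and 5, had 659392, 326559, 342633 and 242178 reads in total. The dependence of level on GC content was also read by run, without a test between runs. Its values overlapped between run 2 and runs 1 and 3 but not between run 2 and run 4. The slope of log2 level on GC content over 240 other miRNAs, per 10 percentage points of GC, was 0.0955 to 0.412 in the 6 libraries of run 2, against -0.209 to -0.161 in run 4, -0.272 to 0.136 in run 3 and -0.239 to 0.313 in run 1. The neuronal marker miRNAs summed to a median of 188407, 171738, 230103 and 264664 CPM in runs 1 to 4. The 2 immune marker miRNAs with a row summed to a median of 5548, 11905, 4999 and 6826 CPM in runs 1 to 4, highest in run 2. The oligodendrocyte medians were 773, 439, 856 and 683 CPM and the blood vessel medians 5120, 3661, 4223 and 4256 CPM, both lowest in run 2. Those of choroid plexus and ependyma were 8573, 6748, 22890 and 6422 CPM. The part of depth, GC content or any of these cell types in the run differences was not tested.

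The remaining members followed other run patterns. The run means of miR-125b-5p were 13.75, 13.32, 12.77 and 12.76 (limma adjusted p = 0.0147, called in 20 of 20 fits without 1 library). Those of miR-99a-3p ran the other way, with 6.67, 6.64, 7.63 and 7.27 (limma adjusted p = 0.0405). This last call was the least stable, being lost in 12 of 20 fits, those without CBD replicate 1, 7, 9 or 10 or vehicle replicate 1, 2, 3, 4, 6, 7, 8 or 10. For miR-125b-2-3p the means were 9.60, 9.67, 10.02 and 10.14 (limma adjusted p = 0.0521), a miss that became a call without CBD replicate 3, 6 or 8. For miR-100-5p they were 7.53, 6.38, 6.98 and 6.80 (limma adjusted p = 0.0517), a call without CBD replicate 3, CBD replicate 4 or vehicle replicate 4. The smallest span among the 5p members was that of miR-99a-5p, with 8.96, 8.70, 8.34 and 8.65 (limma adjusted p = 0.0910), and it was not called in any of the 20 fits. Both miR-125b-2-3p and miR-100-5p were called after median centring or scaling to total reads.

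**Figure D3:**
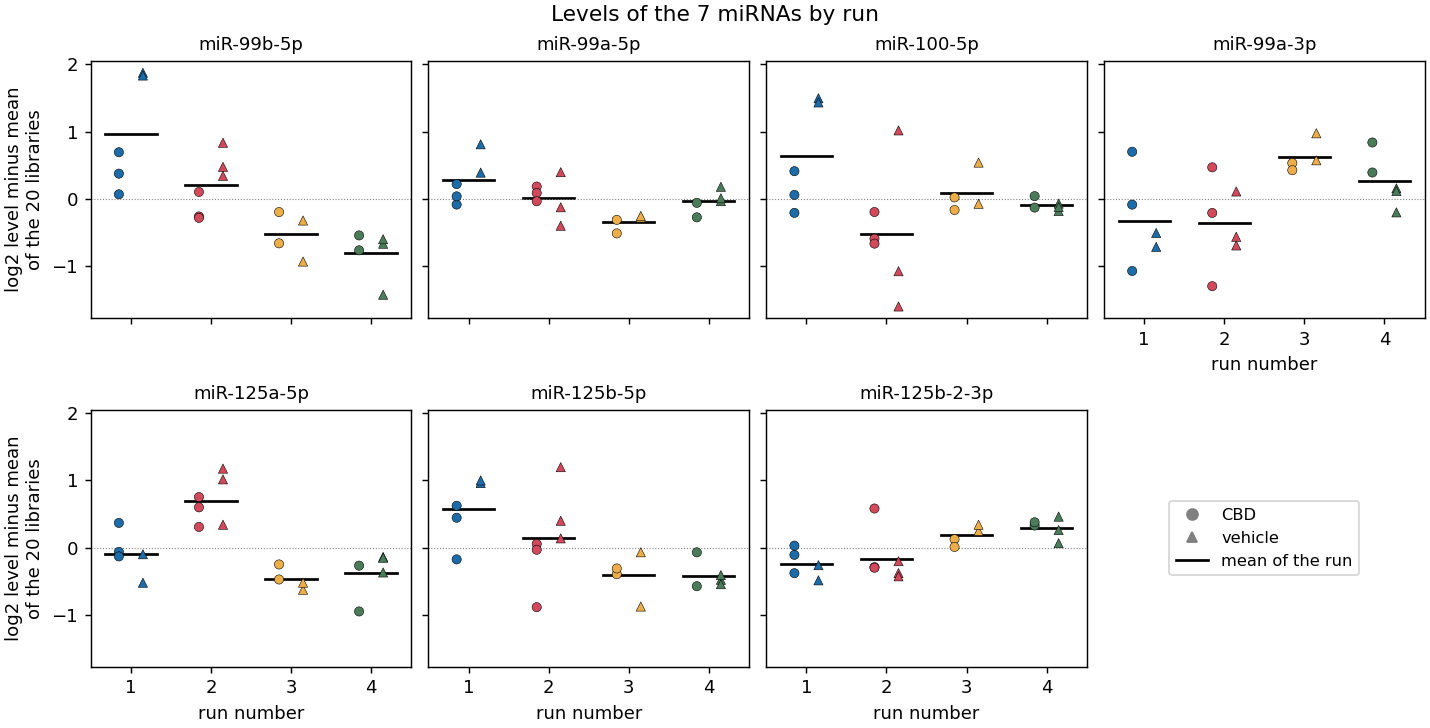
Each panel shows the log2 level of 1 miRNA minus its mean over the 20 libraries (vertical axis) by run number, with CBD mice left (circles), vehicle mice right (triangles) and a line at the run mean. The run means of miR-99b-5p fall over the 4 run numbers, those of miR-125a-5p peak in run 2, and the 3p arms stand higher in runs 3 and 4 than in runs 1 and 2.

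The partners of these clusters, let-7 miRNAs that repress growth and stem cell genes, were read from a list of 12 let-7 and miR-10 arms, of which 5 had a row in the table. The let-7e hairpin lies between Mir99b and Mir125a, yet let-7e-5p had run means of 11.62, 11.44, 11.73 and 11.39 (limma adjusted p = 0.466) and let-7e-3p 6.49, 6.55, 5.97 and 6.24 (limma adjusted p = 0.178). Neither let-7e arm was called, and their run means spanned 0.35 and 0.58. The let-7c-5p level had run means of 16.29, 16.22, 16.48 and 16.11 (limma adjusted p = 0.673) and let-7a-5p 13.28, 13.11, 13.40 and 13.30 (limma adjusted p = 0.396), and each has further hairpins outside these clusters. The 1 of 5 partners called was let-7c-2-3p (limma adjusted p = 0.0317), whose RefSeq hairpin is on chromosome 15 and which shares its mature sequence with let-7a-1-3p, so it is no neighbour of a member. With CBD against vehicle 0 of the 5 passed. Their log2 differences were -0.03 for let-7e-5p, -0.12 for let-7e-3p, 0.26 for let-7c-5p, -0.43 for let-7c-2-3p and -0.14 for let-7a-5p, with limma adjusted p of 0.619 to 0.965.

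Log2 ratios between members of the same library remove the library's scaling, and 8 were compared. A permutation test of the run labels gave adjusted p under 0.05 for 6 of the 8 ratios, adjusted over the 8. The same 6 had an unadjusted p under 0.05, beside 53.8% of all 39340 pairs of miRNAs with 1000 permutations of the runs. Over all those pairs, runs held a median of 39% of the variance of the log2 ratio, with quartiles of 25.9% and 51.7%. Of the 6 called ratios, those of miR-99b-5p to miR-99a-5p and to miR-100-5p lay above the upper quartile, and the other 4 lay between the quartiles, at 44.4% for miR-125a-5p to miR-125b-5p, 50.9% for miR-99b-5p to miR-125a-5p, 47.4% for the arms of miR-99a and 51.1% for those of miR-125b. With each run left out in turn, the ratio of miR-99b-5p to miR-100-5p alone among the 6 kept its call every time.

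The ratio of miR-99b-5p to miR-99a-5p had run means of -0.68, -1.19, -1.56 and -2.13 in runs 1 to 4 (permutation test, adjusted p = 0.00508), with 59.3% of its variance between runs and an adjusted p of 0.0785 without run 4. The only library with more miR-99b-5p than miR-99a-5p was vehicle replicate 1 of run 1, at 0.11. To miR-100-5p, the ratio of miR-99b-5p had run means of 0.75, 1.14, -0.19 and -0.29 (permutation test, adjusted p = 0.00328) with 60.6% between runs. In run 1 this ratio was nearly constant, from 0.69 to 0.82 over 5 libraries, although both levels spread widely there. The ratio of miR-125a-5p to miR-125b-5p was 0.81, 2.02, 1.42 and 1.51 (permutation test, adjusted p = 0.0216), and this call was lost at an adjusted p of at most 0.0669 without vehicle replicate 1 or vehicle replicate 2, and at 0.242 and 0.158 without run 1 and without run 2. The only library with slightly more miR-125b-5p than miR-125a-5p was vehicle replicate 2 of run 1, at -0.05.

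Among 5p neighbours in a cluster, the ratio of the chromosome 17 pair passed the test and those with miR-125b-5p did not. For miR-99b-5p to miR-125a-5p the run means were -6.28, -7.83, -7.40 and -7.76 (permutation test, adjusted p = 0.0209). Within run 1 the CBD libraries were at -7.14 to -6.90, with vehicle replicates 1 and 2 higher, the highest at -4.98. Without run 1 this ratio had 12.2% of its variance between runs and an adjusted p of 0.454. The ratios of miR-99a-5p and miR-100-5p to miR-125b-5p had adjusted p of 0.290 and 0.134 in the permutation test, the second with 0.0237 without vehicle replicate 4. Their test cannot speak for a single cluster, because miR-125b-5p comes from both.

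The ratios between the 2 arms of a hairpin, which come from the same precursor molecule, also passed. For miR-99a the 5p to 3p log2 ratio was 2.29, 2.06, 0.71 and 1.38 in runs 1 to 4 (permutation test, adjusted p = 0.0216, or 0.0589 without vehicle replicate 7, 0.206 without run 3 and 0.0507 without run 4). For miR-125b-5p to miR-125b-2-3p it was 4.15, 3.65, 2.74 and 2.62 (permutation test, adjusted p = 0.0209, or 0.121 without run 1 and 0.0785 without run 4). The 5p arm was above the 3p arm in 20 of 20 libraries for both hairpins. Part of the miR-125b-5p reads belongs to the chromosome 9 hairpin, so its ratio is not one of arms alone.

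With CBD against vehicle 0 of the 8 ratios passed. The largest difference was in the 5p to 3p ratio of miR-125b, at 3.17 ± 0.72 in CBD mice and 3.50 ± 1.06 in vehicle mice (SD over 10 mice a group), a difference of -0.34 (permutation test, p = 0.409, adjusted p = 0.893). Over the 8 ratios the adjusted p was 0.893 to 0.978, and the exact permutation test within runs, over 12000 relabellings, gave adjusted p of 0.481 to 0.853. For miR-99b-5p to miR-99a-5p the ratio was -1.44 ± 0.39 with CBD and -1.30 ± 0.95 with vehicle, with differences of -0.93, -0.82, 0.35 and 0.46 in runs 1 to 4.

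**Figure D4:**
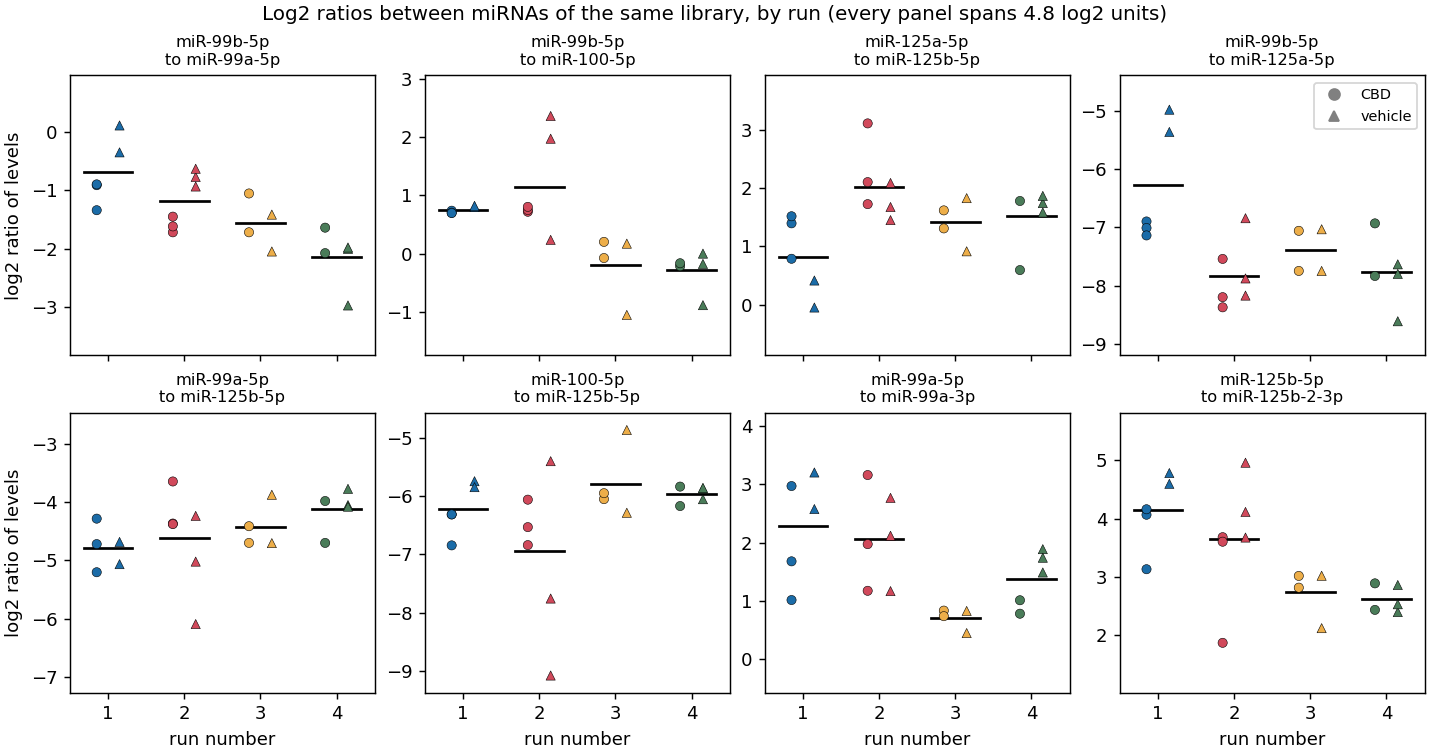
Each panel shows a log2 ratio between 2 miRNAs of the same library (vertical axis, 4.8 log2 units in every panel) by run number, with CBD mice left (circles), vehicle mice right (triangles) and a line at the run mean. The run mean of miR-99b-5p to miR-99a-5p goes down over runs 1 to 4, at -0.68, -1.19, -1.56 and -2.13, and in run 1 the vehicle libraries stand above the CBD libraries in the ratio of miR-99b-5p to miR-125a-5p.

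Across the 20 libraries, members were correlated, in either direction, across clusters and seed groups as well as within them. In the deposited scaling the arms of miR-99a and of miR-125b varied in opposite directions. Of the 21 pairs of members 11 had an adjusted p under 0.05 by Pearson's r and 8 by Spearman's rho, in a permutation test adjusted over the 21 pairs, and 4 of the 11 were positive. Of the 8 pairs within a cluster 4 were called, 3 of them negative. The positive one joined the 3p arms of chromosome 16. Pairs of 5p members within a cluster, with r of 0.16 to 0.36, were not called. Over all 39340 pairs of miRNAs r had a median of -0.01 and quartiles of -0.30 and 0.31, and 13.2% of them had an r at or above 0.5. The share of all pairs that this test would call, positive or negative, was not computed, so the counts of called pairs have no such background. The levels are shares of 1 library, so they are not independent, and the libraries also share runs.

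The neighbours miR-99b-5p and miR-125a-5p had r = 0.23 and rho = 0.45 (permutation test, adjusted p = 0.383 and 0.0894). Their r was -0.29 after removing run means, and 0.57 without vehicle replicates 1 and 2, the libraries farthest from the median of miR-99b-5p. By comparison, miR-99b-5p went with miR-125b-5p, of other chromosomes and the other seed group, at r = 0.82 and rho = 0.86 (permutation test, adjusted p = 0.000105 for both). This stayed at 0.74 without vehicle replicates 1 and 2 and was 0.64 with run means removed (permutation test, adjusted p = 0.0415). Within run 2, the single run with 6 libraries, it was 0.55, while runs 1, 3 and 4 hold too few libraries for a value. A value of r at or above 0.8 was seen in 1.45% of all pairs of miRNAs.

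The paralogues miR-99a-5p and miR-100-5p, which differ by U16A, had r = 0.64 and rho = 0.35 (permutation test, adjusted p = 0.00766 and 0.213), and r = 0.60 without the 2 farthest libraries. With run means removed it was 0.81 (permutation test, adjusted p = 0.0178), the highest of the 21 pairs under that setting. The part of reads placed on the wrong one of these near-identical sequences was not tested. For miR-99b-5p and miR-99a-5p r was 0.61 (permutation test, adjusted p = 0.0130) with rho = 0.43, but 0.24 without vehicle replicates 1 and 2, so that relation rests on those libraries.

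Of the 10 pairs of a 3p with a 5p member, 6 were called, each with a negative r. The others were not called, with r from -0.40 for miR-125a-5p and miR-99a-3p to -0.11 for miR-125b-2-3p and miR-100-5p. For miR-125b-5p and miR-125b-2-3p r was -0.83 and rho -0.86 (permutation test, adjusted p = 0.000105 for both), -0.77 without CBD replicate 6 and vehicle replicate 1, and -0.72 with run means removed (permutation test, adjusted p = 0.0434). Scaled to total reads, however, that r was -0.43 and no longer called (permutation test, adjusted p = 0.113). For the arms of miR-99a r was -0.64 (rho -0.64, permutation test, adjusted p = 0.00766 and 0.0105). It was no longer called when scaled to total reads, at -0.32, or with run means removed, at -0.48 (permutation test, adjusted p = 0.227 and 0.242). The 3p arms of the chromosome 16 cluster went together at r = 0.73 (rho 0.71, permutation test, adjusted p = 0.00178 and 0.00311), with 0.69 scaled to total reads. After removing run means this r was 0.61 and no longer called (permutation test, adjusted p = 0.0636). The level of miR-125a-5p went against miR-100-5p at r = -0.55 (rho -0.51, permutation test, adjusted p = 0.0252 and 0.0541), a relation that rests on vehicle replicates 3 and 5, without which it was -0.24, although it was -0.61 with run means removed (permutation test, adjusted p = 0.0446). With run means removed 4 of the 21 pairs were called, against 11 without, and these were miR-99b-5p with miR-125b-5p, miR-99a-5p with miR-100-5p, miR-125a-5p with miR-100-5p and the arms of miR-125b. Over all pairs of miRNAs, r with run means removed had quartiles of -0.26 and 0.28.

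**Figure D5:**
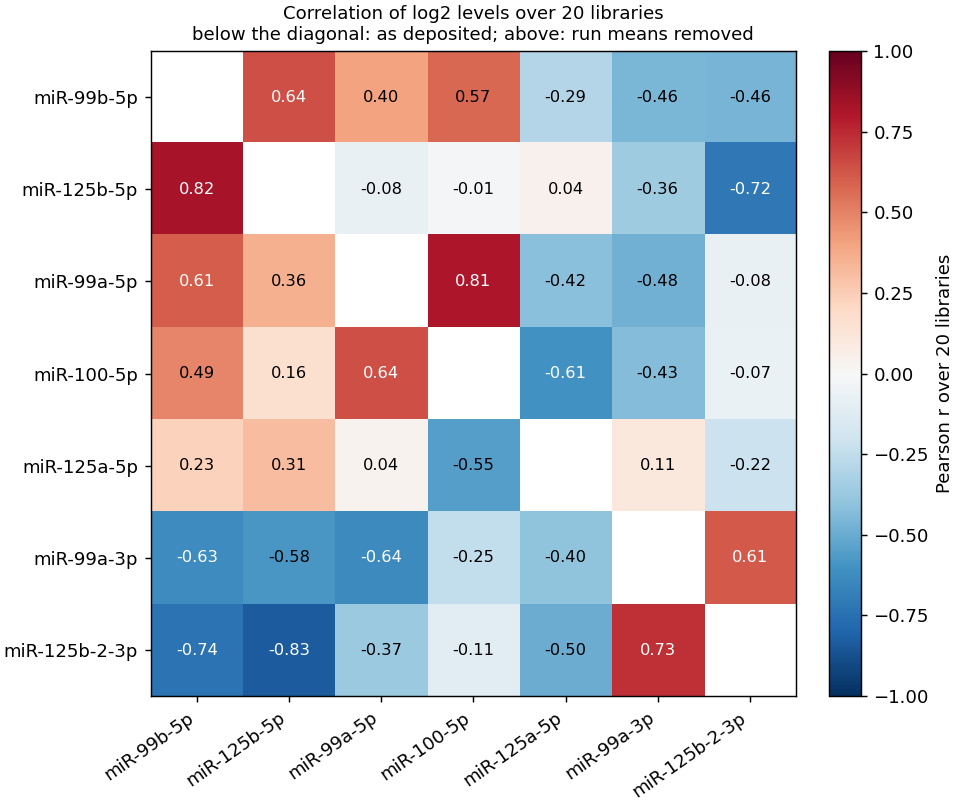
The coloured squares give Pearson's r of log2 levels over 20 libraries for each pair of the 7 miRNAs, as deposited below the diagonal and with run means removed above it. The pair miR-99b-5p and miR-125b-5p is at 0.82 below and 0.64 above the diagonal, and the chromosome 17 neighbours miR-99b-5p and miR-125a-5p are at 0.23 and -0.29.

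For each member, the 3 other miRNAs of the table with the highest Pearson's r over the 20 libraries were listed as a description, without a test. The nearest to miR-99b-5p were miR-125b-5p at 0.82, miR-700-5p at 0.78 and miR-377-5p at 0.77. Those of miR-125b-5p were miR-700-5p at 0.91, miR-345-5p at 0.84 and miR-99b-5p at 0.82, so these members had a neighbour in common. The nearest to miR-125a-5p were miR-667-3p at 0.93, miR-935 at 0.92 and miR-92b-3p at 0.91. Those are GC-rich, at 65.2%, 66.7% and 63.6%, against a median of 47.8% over the miRNAs matched to RefSeq and 50% in miR-125a-5p itself. The 3p arms had AU-rich neighbours, with miR-369-3p at 0.79 for miR-125b-2-3p, of 23.8% GC, and miR-101b-3p at 0.82 for miR-99a-3p, of 42.1% GC. The abundant neuronal miR-9-5p, of 34.8% GC, was also among the nearest to miR-99a-3p, at 0.81. The nearest to miR-99a-5p was miR-222-3p at 0.79, and the nearest to miR-100-5p was miR-23b-3p at 0.79.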

How the data were processed

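Total RNA was extracted with Trizol and libraries were made with an Illumina TruSeq small RNA kit, per the labels' protocols. No molecular identifiers are named. The authors used edgeR and limma and the build mm10, per the submitters' processing notes, and neither an aligner, a counter nor a miRNA catalogue is named in the sources used here. The deposited table holds log2 values by the authors for 281 miRNAs in 20 libraries. Each had the form of log2 reads per 1000000 with 0.5 reads added, and whole reads came back from all values within 1e-06, so depth is known. The deposited technical table gives total reads (the library size) and run number, per the file headers. The authors' deposited comparison table of log2 fold changes and p-values was used only where named.

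The deposited log2 values were fitted as they stand with limma 3.58.1 in R 4.3.3, with a treatment term alone and a variance trend, and adjusted p follows Benjamini and Hochberg over 281 miRNAs. Runs were tested by an F test beside treatment. Ratios and correlations had 100000 permutations, two-sided, and 20000 in the alternatives. For p-values over pairs, 1e-05 is the smallest that 100000 permutations give. GC slopes used the 247 of 281 miRNAs matched to RefSeq (87.9%), members left out. The fits and tests were tested on simulated data. Alternatives were the run term, other scalings, array weights, no variance trend, a minimum mean of 100 reads per 1000000, and each library or run left out. The run term with other scalings or array weights, and the alternatives for correlations, were chosen after seeing the data. The members, lists and tests were chosen with earlier results of these data known. Named miRNAs are the 7 members, the listed partners, the miR-486 entries and, for each member, the 3 miRNAs with the highest Pearson's r.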

Additional observations from a re-analysis of the deposited data

How the results depend on the processing

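No paired analysis was possible because mouse numbers are not shared between the groups. In every alternative 0 members and 0 ratios were called with CBD against vehicle. Over all miRNAs array weights gave 24 calls with CBD, or 0 with the run term added, and 211 between runs, with 7 of 7 members called. Leaving out 1 library gave 98 to 159 calls between runs over all miRNAs, 3 to 6 over the members and 5 to 7 over the ratios. Without run 1 and without run 4 the ratios called between runs were 3 and 3, and with run means removed 4 pairs correlated. The cause of these changes was not tested. Uncalled CBD differences changed sign as follows. With array weights they were 0.24 for miR-99b-5p, 0.12 for miR-125b-5p, 0.062 for miR-125a-5p, -0.093 for miR-125b-2-3p, 0.043 for let-7e-3p and 0.076 for let-7e-5p, and with the run term -0.0061 for let-7c-5p. Median centring gave 0.059 for miR-125a-5p and 0.047 for let-7e-5p, or 0.035 and 0.028 with the run term, and quantile normalisation 0.037 for let-7e-5p, or 0.024. Without run 2 the values were 0.094 for miR-125a-5p, -0.035 for miR-125b-2-3p, 0.068 for let-7e-3p, 0.20 for let-7e-5p, and in ratios 0.15 for miR-99b-5p to miR-99a-5p, 0.31 to miR-100-5p, -0.25 for miR-99a-5p to miR-125b-5p and 0.030 for miR-125b-5p to miR-125b-2-3p. Without run 1 they were 0.045 for miR-99b-5p to miR-125a-5p and 0.19 for miR-100-5p to miR-125b-5p, which had 0.087 without run 3 and 0.062 without run 4, where miR-125a-5p had 0.029. With 1 library left out the ranges were -0.19 to 0.013 for let-7e-3p, -0.12 to 0.07 for let-7e-5p, -0.11 to 0.11 for miR-125a-5p, -0.33 to 0.14 for miR-100-5p to miR-125b-5p, -0.052 to 0.21 for miR-99a-5p to miR-125b-5p, and -0.17 to 0.21 and -0.33 to 0.013 for miR-99b-5p to miR-100-5p and to miR-99a-5p. With run means removed, r turned to -0.29 for miR-99b-5p and miR-125a-5p, -0.42 and 0.11 for miR-125a-5p with miR-99a-5p and miR-99a-3p, and -0.078 and -0.015 for miR-125b-5p with miR-99a-5p and miR-100-5p. Median centring gave -0.050 for miR-125a-5p and miR-99a-5p, and total reads 0.16 and 0.24 for miR-125b-2-3p with miR-99a-5p and miR-100-5p. At 7 reads in its lowest library, miR-100-5p is limited by depth, and intervals cover neither ligation nor mapping bias.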
